A study of Homo sapiens with 9 samples.

Results

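LINC genes are loci that received a LINC number as a placeholder name, most of them long RNAs transcribed between protein-coding genes and not known to encode a protein. The loci described here were those whose identifier table carried a LINC symbol and whose mean level was at least 0.5 FPKM over the 4 RNA-seq libraries, FPKM being a level scaled for transcript length and sequencing depth. They were thus chosen by their mean FPKM. That rule gave 53 loci, with 52 different symbols, out of 22266 loci of the gene table and out of 13937 loci that passed the same level. The gene table held 151 LINC loci, so 98 fell below the level. The rule used the mean of all 4 libraries, so a locus low in the control could enter only by being high in another library, and levels near the threshold are given as a description. Just inside it lay a locus listed under LINC00652 at 0.507 FPKM, LINC00526 at 0.51 FPKM and LINC00682 at 0.585 FPKM. Just outside it lay LINC00205 at 0.493 FPKM, LINC00624 at 0.478 FPKM and LINC00849 at 0.435 FPKM.

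The study depleted decay factors with siRNA in HEK293 Flp-In T-Rex, a line made from human embryonic kidney, and sequenced poly(A)+ RNA from cytoplasm opened with digitonin. The control cells had received siRNA against EGFP. The other cells had lost XRN1 alone, SMG6 together with XRN1, or UPF1 together with XRN1, as their labels state. All cells, the control included, carried a beta-globin reporter with a stop codon at position 39 at the Flp-In locus and came from 1 subline. With 1 RNA-seq library for each condition, no difference here has a replicate check and no p-value was computed. The 5′-end libraries (4) and the CAGE library (1) were not analysed here. Both co-depleted libraries share the control and the XRN1 library, so their ratios are given side by side and are not independent of each other.

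Nonsense-mediated decay (NMD) removes RNAs on which a ribosome stops early, in particular upstream of an exon junction. UPF1 is the helicase at its centre, SMG6 is the endonuclease that cuts the RNA near the stop, and XRN1 degrades the downstream fragment from its 5′ end. A long RNA called non-coding can still enter this pathway once it reaches the cytoplasm, because ribosomes can translate short reading frames in it.

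The libraries held between 31476528 and 35983475 reads as recovered from the isoform signal, in which 1 read was worth 3.72 to 4.25 units. The level of a targeted mRNA did not check every label. XRN1 mRNA was at 0.894 times the control in the library labelled XRN1 (95% interval 0.834 to 0.958), at 1.125 times in SMG6/XRN1 (1.053 to 1.202) and at 1.005 times in UPF1/XRN1 (0.941 to 1.073). UPF1 mRNA in the library labelled UPF1/XRN1 was at 0.636 times the XRN1 library but at 1.1 times the control, and SMG6 mRNA in the library labelled SMG6/XRN1 was at 1.3 times the control. Protein levels were not measured here, and every library below is named by its label. Of 4 genes fixed as HEK293 markers, NEFL (31.3 to 57.3 FPKM) and LIN28B (25.9 to 33.3 FPKM) were high, NEFM ranged from 0.266 to 0.804 FPKM and PAX2 from 0.19 to 0.304 FPKM. Of 7 genes fixed for other cell types, EPCAM was at 98.0 to 125.9 FPKM and HBA1 at 3.83 to 6.21 FPKM, and PTPRC, CD3E, COL1A1, ALB and CDH5 were below 1 FPKM in every library. In such bulk RNA, fewer cells that make a transcript and less of it per cell cannot be told apart.

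Not every locus with a LINC name was a LINC transcript. Reads of isoforms carrying the LINC symbol made up at least 80% of the reads at 40 loci, which are called LINC-led below. Among them, LINC00449 and the lower of the loci listed under LINC00652 each held 1 isoform, classed as overlapping its reference on the opposite strand. These 2 may be antisense to the LINC gene, and they stay in the counts below. The other 13 of the 53 are called joined loci below, because the assembled locus also held many reads of isoforms without a LINC symbol. Whether those came from a neighbour or from an overlapping gene was not tested. At 5 of the 53 the LINC isoforms held under 1% of the reads. The locus of LINC00618 was 99.86% VRK1, a protein kinase gene, by reads, and that of LINC00189 was 99.54% BACH1, a transcription factor gene. LINC00471 and LINC00869 still led theirs, with 74.4% and 52.2% of the reads, while the values of the other 11 mostly describe other genes. All 13 are reported apart. In GENCODE 29, a later gene annotation, 50 of the 53 could be matched through their transcript identifiers. Of these, 18 carried another symbol and 8 were filed under a protein-coding gene. LINC00657 had become NORAD, LINC00152 CYTOR, LINC00263 OLMALINC, LINC00338 SNHG20 and LINC00478 MIR99AHG. LINC00493 had become SMIM26, LINC00116 MTLN and LINC00617 TUNAR.

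LINC-led loci were low. Their mean level ranged from 0.507 to 79.8 FPKM with a median of 2.07 FPKM, against 6.75 FPKM over all loci tested. Only 9 of 40 reached 10 FPKM and 13 were under 1 FPKM. All but 2 of them had at least 20 reads in some library, and the exceptions were LINC00515 and LINC00444. LINC00444 was listed at 0 in the control and the XRN1 library and rested on 1 read in SMG6/XRN1 and 4 reads in UPF1/XRN1. Its change is not interpreted. It stays in the counts and medians below, where it is called higher in the 4 comparisons of a co-depletion.

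**Figure D1:**
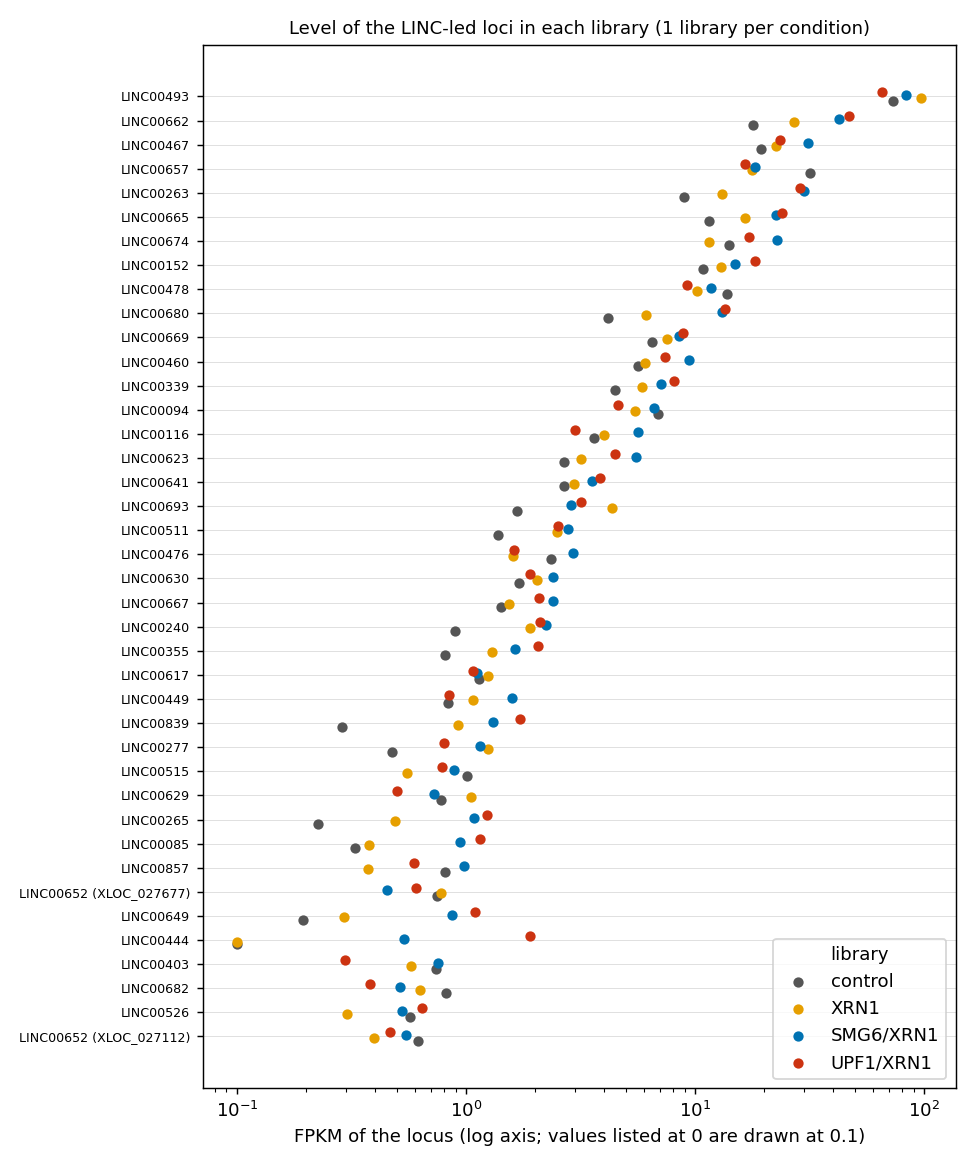
FPKM of each LINC-led locus in the 4 RNA-seq libraries, on a log axis with loci in order of their mean. Each point is 1 library, and most loci lie below 10 FPKM.

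The next sequences are the first frames, from the first ATG that has a stop in frame to that stop, of the LINC-led isoforms that had at least 50 reads in some library, matched GENCODE 29 in the same version and held a frame of 50 to 99 codons. They are shown because the position of such a stop relative to the last exon junction is what the textbook rule for NMD reads. Capitals mark the start and stop codons, and the letters come from the GENCODE 29 transcripts (GRCh38). A frame here is a string of letters and not evidence that it is translated.
LINC00116: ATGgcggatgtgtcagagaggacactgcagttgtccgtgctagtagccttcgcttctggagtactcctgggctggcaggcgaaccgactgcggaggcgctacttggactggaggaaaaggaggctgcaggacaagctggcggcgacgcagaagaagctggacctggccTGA
LINC00493: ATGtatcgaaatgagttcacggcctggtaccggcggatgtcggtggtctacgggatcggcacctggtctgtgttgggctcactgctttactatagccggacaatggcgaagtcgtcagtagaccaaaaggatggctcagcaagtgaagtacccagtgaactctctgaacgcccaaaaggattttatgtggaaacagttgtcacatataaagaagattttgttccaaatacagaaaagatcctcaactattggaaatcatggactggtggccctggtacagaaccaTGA
LINC00662: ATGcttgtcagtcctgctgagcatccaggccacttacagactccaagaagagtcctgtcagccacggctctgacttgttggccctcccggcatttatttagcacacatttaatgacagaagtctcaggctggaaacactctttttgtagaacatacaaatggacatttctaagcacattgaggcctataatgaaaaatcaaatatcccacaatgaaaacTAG
LINC00665: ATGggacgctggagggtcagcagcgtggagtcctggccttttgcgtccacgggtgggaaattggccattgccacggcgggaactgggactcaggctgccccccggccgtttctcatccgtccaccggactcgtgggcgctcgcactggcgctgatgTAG
LINC00355: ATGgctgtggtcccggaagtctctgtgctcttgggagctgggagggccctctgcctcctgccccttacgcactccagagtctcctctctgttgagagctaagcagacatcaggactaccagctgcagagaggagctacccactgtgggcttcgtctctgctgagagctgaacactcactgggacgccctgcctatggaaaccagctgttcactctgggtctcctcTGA
LINC00669: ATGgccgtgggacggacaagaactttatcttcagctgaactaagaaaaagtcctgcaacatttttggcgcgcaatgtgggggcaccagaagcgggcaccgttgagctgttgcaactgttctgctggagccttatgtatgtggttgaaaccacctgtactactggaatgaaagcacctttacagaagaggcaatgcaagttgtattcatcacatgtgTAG

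The stop lay upstream of the last junction in 5 of these 6 transcripts. The distance was 77 bases in LINC00662 (73 codons; transcript at chr19:27730273-27746230 of GRCh38, minus strand), 278 bases in LINC00665 (52 codons; chr19:36324937-36331649, minus strand) and 787 bases in LINC00355 (75 codons; chr13:63986371-64076011, minus strand). It was 140 bases in LINC00116 (56 codons; chr2:110211530-110212823, minus strand) and 64 bases in LINC00669 (72 codons; chr18:39206924-39800318, minus strand). In the printed transcript of LINC00493 (95 codons; chr20:18567420-18569563, plus strand) the stop lay in the last exon. That transcript, ENST00000411646.1, held 33.9% of the LINC00493 reads in the control, and ENST00000435844.1 held 66.1%. In the GENCODE 29 version of the latter, the first frame has 35 codons and stops 104 bases upstream of the last junction. The frame of LINC00116 is that of mitoregulin, a small protein of the inner mitochondrial membrane, and the frame of LINC00493 is that of SMIM26, a small membrane protein.

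The first question was how often LINC loci rose when the decay factors were depleted. A change was called at 2-fold on the scale of log2((a + 0.1)/(b + 0.1)) of FPKM, which understates changes of low loci. In SMG6/XRN1 over control, 16 of 53 loci were at least 2-fold higher and 0 were lower, among them 11 and 0 of the 40 LINC-led loci, where 15.6% of all loci tested were higher and 0.875% lower. In UPF1/XRN1 over control, 16 were higher and 1 was lower (11 and 1 of the LINC-led), against 15.5% and 2.23% of all loci. Both co-depletions were at least 2-fold above the control at 14 loci, 9 of them LINC-led, against 12.2% of all loci, and 0 loci were lower in both, against 0.517%. Of the 14 higher loci, 13 had at least 20 reads in some library, and the other was LINC00444.

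Much of that excess sat at loci that the control hardly expressed. Of the 53 loci, 7 were below 0.5 FPKM in the control and so entered the set through other libraries, and 6 of these 7 were higher in both co-depletions, where 55.7% of all such loci were. Among LINC-led loci with at least 0.5 FPKM in the control, 4 of 34 (11.8%) were higher in both, against 8.99% of all such loci, a share near the background. Over the whole set of that level it was 8 of 46 (17.4%), with the joined loci counted.

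Fewer loci were called with XRN1 depletion alone. In XRN1 over control, 6 loci were at least 2-fold higher and 0 lower (4 and 0 of the LINC-led), against 9.06% and 1.37% of all loci. Adding the second depletion to that of XRN1 gave 9 higher and 0 lower in SMG6/XRN1 over XRN1 (7 and 0 of the LINC-led), against 4.15% and 0.682%. It gave 8 higher and 0 lower in UPF1/XRN1 over XRN1 (6 and 0 of the LINC-led), against 5.35% and 2.46%. LINC00444, LINC00649, LINC00857, LINC00085 and LINC00265, all among the higher in SMG6/XRN1, were below 0.5 FPKM in the XRN1 library. Their levels there were 0, 0.293, 0.375, 0.376 and 0.491 FPKM, so they entered the set through other libraries. All but LINC00857 were also higher in UPF1/XRN1. These shares were not divided by the level in XRN1, so they are a description only.

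The middle of the distribution was also shifted. The median log2 change of LINC-led loci was 0.67 in SMG6/XRN1 over control and 0.42 in UPF1/XRN1 over control, against 0.30 and 0.18 over all loci tested. In XRN1 over control the medians were 0.21 and 0.17. With all loci centred on those medians, 9 LINC loci in place of 16 were higher in SMG6/XRN1 over control (17% of them), where the share of all loci went from 15.6% to 9.66%.

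**Figure D2:**
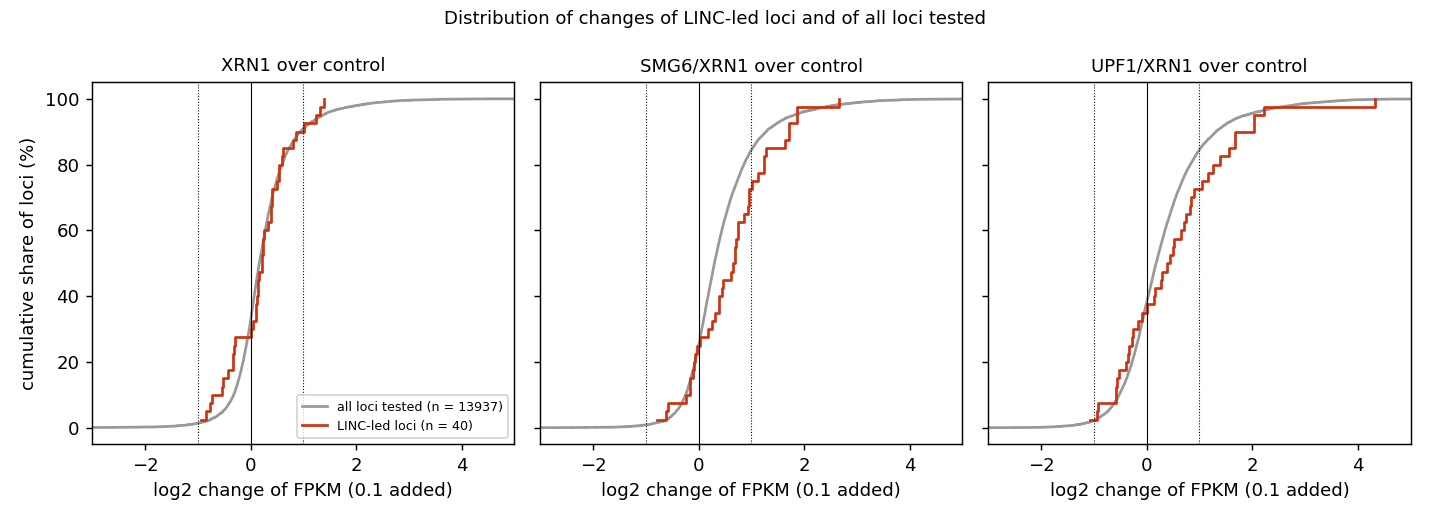
Cumulative share of loci (%) against the log2 change of FPKM (0.1 FPKM added), for 40 LINC-led loci and 13937 loci tested, with dotted lines at 2-fold. The LINC-led curve runs close to that of all loci in XRN1 over control and to its right in the middle of SMG6/XRN1 over control, with medians of 0.67 and 0.30.

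Counting error gave a second reading. For each locus the ratio of its reads, scaled as deposited, was given an exact conditional binomial interval at 95%, which covers counting error only. Below, a locus or isoform is said to rise or fall where that interval lies off 1 in the comparison named. In SMG6/XRN1 over control it lay above 1 at 35 of 53 loci and below 1 at 2, against 66.9% and 7.57% of all loci. In UPF1/XRN1 over control it lay above at 28 and below at 6, against 54.2% and 19.9%. In XRN1 over control it lay above at 20 and below at 6, against 49.9% and 14.5%. LINC loci thus had shares above 1 close to the background in the co-depletions over control and lower than it in XRN1 over control. Their shares below 1 were lower. Whether an interval leaves 1 also depends on the number of reads. LINC-led loci had a median of 2.07 FPKM against 6.75 FPKM over all loci, so these shares do not compare changes alone. Over the XRN1 library, the interval lay above 1 at 30 and below at 2 loci in SMG6/XRN1, against 54.6% and 8.22%, and above at 22 and below at 5 in UPF1/XRN1, against 40.8% and 25.4%. Taking both co-depletions over control, the interval lay above 1 in each at 28 loci (19 of the 40 LINC-led), against 51.5% of all loci, and below 1 in both at 2 loci, against 6.76%. By this measure, which depends on depth, the share of LINC loci that were higher was near the background. No interval was away from 1 in any of the 5 comparisons at 9 of 40 LINC-led loci (22.5%), against 7.95% of all loci, which are more deeply covered. The control held the lowest FPKM of the 4 libraries at 24 of 40 LINC-led loci (60%), against 49.9% of all loci.

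**Figure D3:**
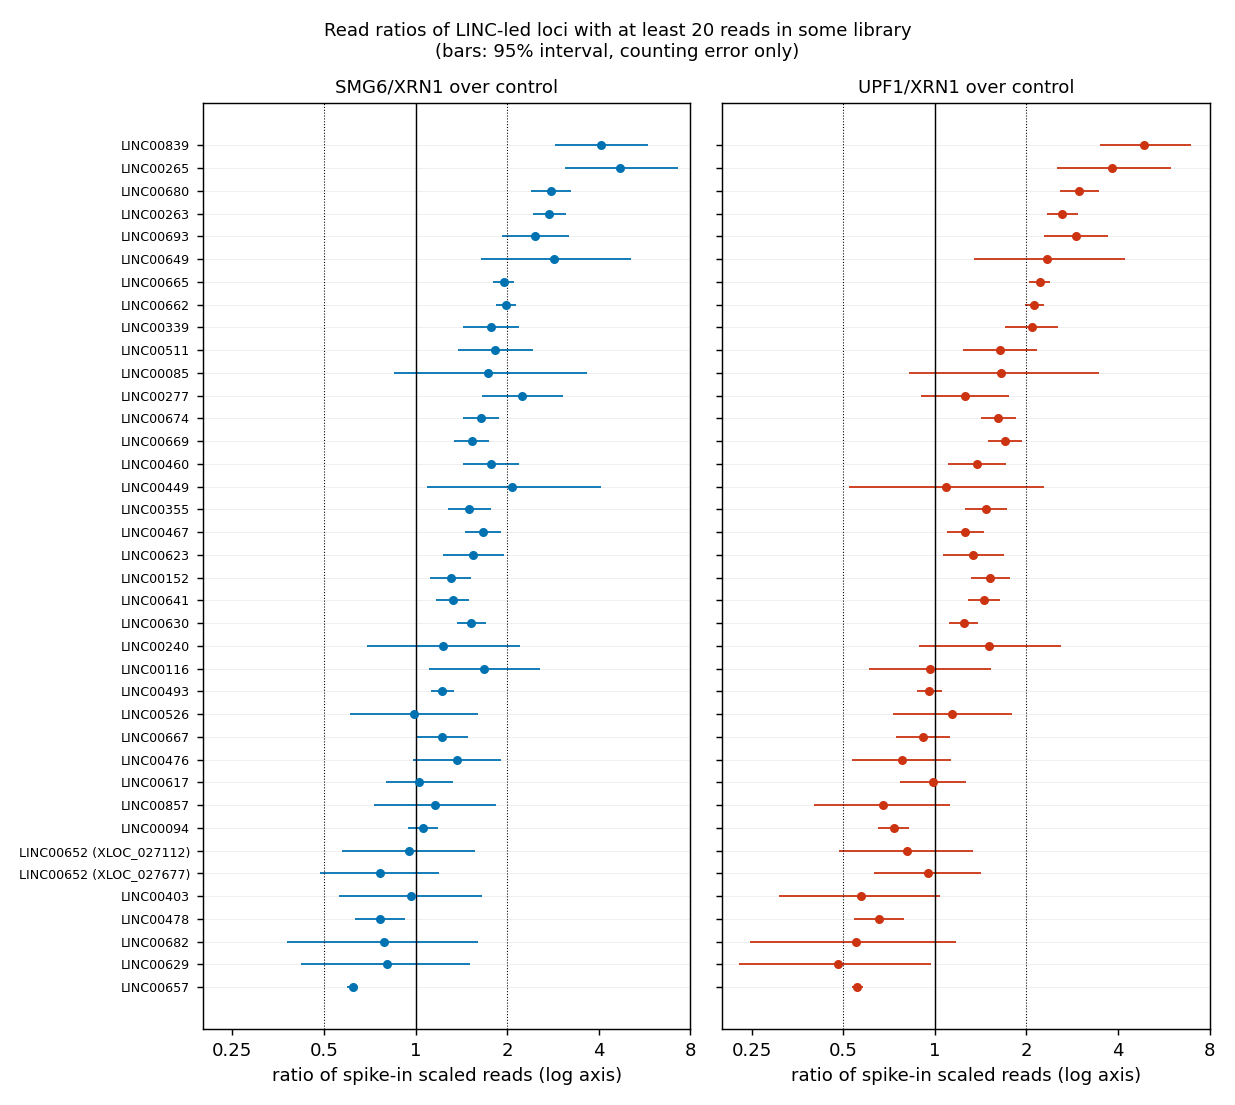
Read ratios of 38 LINC-led loci in SMG6/XRN1 over control and UPF1/XRN1 over control, on a log axis, with 95% intervals for counting error. LINC00839 and LINC00265 are at the top with wide intervals, and LINC00657 is at the bottom with a narrow one.

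LINC00662, LINC00665, LINC00263 and LINC00680 were among the well covered LINC RNAs that rose. LINC00662, an intergenic RNA of chromosome 19, was at 18.0 FPKM in the control and at 27.1, 42.6 and 47.2 FPKM in XRN1, SMG6/XRN1 and UPF1/XRN1. The 4 levels rose in that order, and both co-depleted libraries lay well above the other 2. Its read ratio over the control was 1.98 (1.83 to 2.14) in SMG6/XRN1 and 2.13 (1.98 to 2.29) in UPF1/XRN1.

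LINC00665, also of chromosome 19, was at 11.5, 16.4, 22.5 and 23.9 FPKM in the same order of libraries. The step from the control to XRN1 was a read ratio of 1.3 (1.2 to 1.42), and the whole step to UPF1/XRN1 was 2.21 (2.05 to 2.39). Its FPKM in SMG6/XRN1 was just short of 2-fold, at a log2 change of 0.96, so it is not among the 14 loci higher in both.

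LINC00263, now OLMALINC and known for its part in oligodendrocyte maturation, was at 8.98 FPKM in the control and at 13.2, 29.8 and 28.8 FPKM in XRN1, SMG6/XRN1 and UPF1/XRN1. Here the rise came mainly with the second depletion. Reads were 1.18 (1.02 to 1.36) times the control in XRN1. Over the XRN1 library they were 2.33 (2.08 to 2.63) times with SMG6 and 2.23 (1.99 to 2.5) times with UPF1 also depleted.

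LINC00680, which GENCODE 29 types as a transcribed pseudogene, was at 4.16, 6.13, 13.1 and 13.6 FPKM. Its reads did not separate XRN1 from the control (ratio 1.05, 0.874 to 1.25), while SMG6/XRN1 was at 2.78 (2.4 to 3.24) and UPF1/XRN1 at 2.99 (2.58 to 3.46) times the control. A transcribed pseudogene resembles its parent gene, and no source used here says how reads common to such copies were placed, which leaves its level uncertain.

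The largest ratios belonged to low RNAs. LINC00839 was at 0.288 FPKM in the control and at 0.924, 1.31 and 1.72 FPKM in XRN1, SMG6/XRN1 and UPF1/XRN1, on 43, 109, 158 and 217 reads. All 3 depleted libraries were above the control beyond counting error, at ratios of 2.66 (1.86 to 3.88), 4.05 (2.88 to 5.82) and 4.87 (3.5 to 6.92). LINC00265 was at 0.227, 0.491, 1.08 and 1.24 FPKM, on 29, 49, 123 and 115 reads. Its co-depleted libraries stood at 4.68 (3.1 to 7.27) and 3.83 (2.53 to 5.97) times the control, and its XRN1 library at 1.78 (1.1 to 2.91) times. Both loci were below 0.5 FPKM in the control and so entered the set through the depleted libraries.

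LINC00649 was at 0.195, 0.293, 0.865 and 1.1 FPKM, on 19, 41, 49 and 46 reads. On its reads the 3 depleted libraries were alike, at 2.27 (1.29 to 4.14), 2.84 (1.64 to 5.12) and 2.34 (1.34 to 4.22) times the control, so the further step that its FPKM shows was not in its reads. LINC00085, whose transcripts GENCODE 29 files under SPACA6, was at 0.327, 0.376, 0.941 and 1.15 FPKM on 14, 22, 22 and 24 reads. Its rise in FPKM was not detectable at this depth, with read ratios over the control of 1.73 (0.848 to 3.66) and 1.65 (0.822 to 3.46). LINC00240 went from 0.892 to 1.91 FPKM between the control and XRN1 on 25 and 22 reads. That was a log2 change of 1.02 on FPKM and of -0.11 on reads, with a read ratio of 0.925 (0.497 to 1.71).

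Other LINC RNAs stood above the control mainly when XRN1 was depleted, with or without a second factor. LINC00693, whose transcripts GENCODE 29 files under the RNA-binding protein gene RBMS3, was at 1.67 FPKM in the control and 4.34, 2.87 and 3.19 FPKM in XRN1, SMG6/XRN1 and UPF1/XRN1. Its reads were 2.79 (2.19 to 3.58) times the control in XRN1 alone, and the second depletion left them at 0.884 (0.732 to 1.07) and 1.04 (0.874 to 1.24) times the XRN1 library. LINC00511 gave 84, 138, 139 and 142 reads, a ratio of 1.73 (1.31 to 2.29) in XRN1 over control. Its co-depleted libraries were at 1.06 (0.829 to 1.35) and 0.945 (0.742 to 1.2) times XRN1.

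LINC00277, now EWSAT1, a transcript first described in Ewing sarcoma, gave 67 reads in the control and 146, 136 and 87 in XRN1, SMG6/XRN1 and UPF1/XRN1. Its UPF1/XRN1 library was therefore back near the control (1.25, 0.901 to 1.75) and below XRN1 (0.547, 0.415 to 0.719), while SMG6/XRN1 stayed at 2.24 (1.66 to 3.05) times the control. This split between the co-depletions rests on 1 library each.

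A group of moderate rises completed the set. LINC00152, now CYTOR and known as a cytoplasmic RNA raised in many tumours, was at 10.9, 12.9, 14.9 and 18.2 FPKM, with read ratios over the control of 1.31 (1.12 to 1.53) and 1.52 (1.32 to 1.76) in the co-depletions. LINC00339 gave 149, 224, 239 and 321 reads and reached 2.08 (1.71 to 2.54) times the control in UPF1/XRN1. LINC00669 gave 379, 452, 525 and 668 reads, with 1.53 (1.34 to 1.75) and 1.7 (1.5 to 1.93) times the control in the co-depletions. All 3 had their lowest level in the control and their highest in UPF1/XRN1. LINC00674, typed as a transcribed pseudogene, was at 14.0, 11.5, 22.7 and 17.2 FPKM, while its reads of 374, 365, 556 and 626 put the co-depletions at 1.64 (1.44 to 1.87) and 1.62 (1.42 to 1.84) times the control. LINC00460, LINC00641, LINC00355, LINC00623 and LINC00630 also had both intervals above 1, at ratios between 1.24 and 1.76. On FPKM, LINC00355 in UPF1/XRN1 and LINC00623 in SMG6/XRN1 were called 2-fold higher than the control, while their read intervals lay wholly under 2-fold.

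NORAD, listed as LINC00657, was the main exception. It is an abundant, unspliced cytoplasmic RNA known for its part in keeping chromosome number stable, and its GENCODE 29 transcript lies at chr20:36045622-36050960 of GRCh38, minus strand. It was at 31.9 FPKM in the control and at 17.6, 18.3 and 16.5 FPKM in XRN1, SMG6/XRN1 and UPF1/XRN1, on 6641, 3556, 3744 and 3830 reads. The 3 depleted libraries lay close together and the control lay far above them. The read ratio was 0.563 (0.54 to 0.586) in XRN1 over control, 0.622 (0.597 to 0.647) in SMG6/XRN1 over control and 0.557 (0.535 to 0.579) in UPF1/XRN1 over control. Relative to XRN1 it changed little, at 1.11 (1.06 to 1.16) and 0.989 (0.945 to 1.04). Its fall was short of 2-fold, at a log2 change of -0.85 in XRN1, so it is not in the counts of lower loci. All 3 depleted libraries share siRNA against XRN1, and with 1 control library a low level in them and a high level in that control cannot be told apart.

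Few other LINC RNAs fell. LINC00478, now MIR99AHG, the host of the miR-99a, let-7c and miR-125b-2 hairpins, was at 13.8 FPKM in the control and at 10.2, 11.7 and 9.22 FPKM in XRN1, SMG6/XRN1 and UPF1/XRN1. Its reads were 0.765 (0.632 to 0.924) times the control in SMG6/XRN1 and 0.655 (0.541 to 0.792) times in UPF1/XRN1, which makes it, with NORAD, the only LINC locus with both intervals below 1. LINC00094, now BRD3OS, was at 0.732 (0.649 to 0.825) times the control in UPF1/XRN1 but at 1.06 (0.945 to 1.18) in SMG6/XRN1. LINC00403, which lies at SOX1, was the 1 locus called lower, at 0.736 FPKM in the control and 0.297 FPKM in UPF1/XRN1. Its 32 and 19 reads give 0.573 (0.307 to 1.04), so the difference was not detectable at this depth. LINC00629 went from 26 reads in the control to 13 in UPF1/XRN1 (0.483, 0.228 to 0.974), and LINC00682 from 21 to 12 (0.552, 0.247 to 1.17).

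A few low RNAs had their lowest FPKM or fewest reads in the XRN1 library. LINC00526 gave 39 reads in the control and 20, 35 and 46 in XRN1, SMG6/XRN1 and UPF1/XRN1, so that XRN1 was at 0.539 (0.298 to 0.947) times the control and UPF1/XRN1 was back at 1.14 (0.727 to 1.79) times. LINC00667 gave 200, 150, 222 and 190 reads, with XRN1 at 0.788 (0.633 to 0.979) times the control. For LINC00857, at 0.807, 0.375, 0.975 and 0.592 FPKM, the log2 change of -0.93 in XRN1 over control rested on 40 and 26 reads and was not detectable at this depth (0.683, 0.4 to 1.15). LINC00476 gave 67, 48, 83 and 54 reads, and of its ratios only that of SMG6/XRN1 over XRN1, 1.82 (1.26 to 2.65), was away from 1.

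Of 7 LINC transcripts listed as now known to encode a small protein, 3 were measured. None of the 3 was called at 2-fold in any of the 5 comparisons. Of all loci, between 4.15% and 15.6% were called higher per comparison, so 3 loci are too few to show a difference. The list leaves out other loci that the later gene annotation files under a protein-coding gene. Among these, LINC00617 and LINC00094 were not called, and LINC00085 was called higher on FPKM in both co-depletions over control. LINC00493, the most abundant LINC-led locus, was at 73.3 FPKM in the control and at 97.2, 83.1 and 65.5 FPKM in XRN1, SMG6/XRN1 and UPF1/XRN1. XRN1 held its highest level, and its reads in UPF1/XRN1 were 0.707 (0.648 to 0.771) times the XRN1 library and 0.96 (0.876 to 1.05) times the control. LINC00116 was at 3.62, 3.98, 5.63 and 3.01 FPKM on 40, 45, 61 and 40 reads. Only its ratio in SMG6/XRN1 over control, 1.68 (1.11 to 2.57), was away from 1. LINC00467, which has been reported to encode a small mitochondrial protein, was at 19.4, 22.5, 31.3 and 23.5 FPKM. It was highest in SMG6/XRN1, at 1.67 (1.45 to 1.92) times the control, and in UPF1/XRN1 at 1.26 (1.09 to 1.45) times.

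Some LINC RNAs held a level within counting error across the libraries. LINC00617, now TUNAR, an RNA of neural differentiation, gave 133, 140, 124 and 136 reads. Its ratios over the control ran from 0.987 to 1.11, and the interval of UPF1/XRN1 over control (0.771 to 1.26) bounds the change it could hide. Both loci listed under LINC00652 were in the set, at 0.452 to 0.779 FPKM and at 0.397 to 0.618 FPKM. No interval of either was away from 1. The only isoform of the latter was classed as overlapping LINC00652 on the opposite strand, so it may not be LINC00652 itself.

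At the joined loci the locus value and the LINC isoforms could differ. The locus of LINC00338, now SNHG20 and host of a small Cajal body RNA, was led by SEC14L1, a lipid-transfer protein gene, and changed little as a whole, at 1.22 (1.13 to 1.33) and 1.23 (1.14 to 1.33) times the control in the co-depletions. Its LINC isoforms, 31.2% of the reads, gave 185 reads in the control and 293, 394 and 689 in XRN1, SMG6/XRN1 and UPF1/XRN1. They rose at each step, to 2.35 (1.97 to 2.81) times the control in SMG6/XRN1 and 3.59 (3.05 to 4.25) times in UPF1/XRN1. LINC00310, joined to the mitochondrial ribosomal protein gene MRPS6, gave 153, 116, 192 and 222 LINC reads, or 1.38 (1.11 to 1.72) and 1.4 (1.13 to 1.73) times the control.

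LINC00471 held 74.4% of the reads of its locus, which was at 1.16, 1.19, 4.03 and 3.33 FPKM. Its own reads, 46, 41, 149 and 118, were even in the first pair of libraries and rose in both co-depletions, to 3.57 (2.55 to 5.09) and 2.48 (1.75 to 3.56) times the control. LINC00869 gave 7, 13, 19 and 23 reads of its own, which put it at 2.99 (1.21 to 8.43) and 3.17 (1.32 to 8.75) times the control. LINC00342, joined to ANKRD36C, had 4, 10, 20 and 22 reads of its own, at 5.51 (1.85 to 22.2) and 5.31 (1.8 to 21.2) times the control with very wide intervals.

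At the rest of the joined loci another gene symbol held nearly all or most of the reads. The locus of LINC00843, led by the pseudogene PARGP1, was at 8.21, 18.6, 30.5 and 37.9 FPKM, and LINC00843 itself had 0 reads in every library, which allows up to 3 reads. The locus of LINC00852, led by TATDN2, was at 3.64, 8.88, 7.98 and 7.94 FPKM, with 12, 33, 24 and 25 LINC reads. Those LINC reads were 2.89 (1.45 to 6.14) times the control in XRN1, beside 2.74 (2.48 to 3.03) for the whole locus. That of LINC00663, led by the zinc finger gene ZNF506, was at 5.46, 4.04, 9.65 and 8.16 FPKM, with 3 to 8 LINC reads. The loci of LINC00618, LINC00473, LINC00189 and LINC00472 were led by VRK1, PDE10A, BACH1 and RP11-154D6.1 and held LINC shares of 0.145%, 0.414%, 0% and 1.31%. The few LINC reads there could still differ between libraries, with 0, 9, 6 and 14 for LINC00618 and 2, 2, 16 and 6 for LINC00473. The locus of LINC00505, led by RP5-1109J22.1, held 9 to 12 LINC reads per library.

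Isoforms showed where within a locus the reads went. The isoform table held 283 isoforms that carried a LINC symbol of the 53 loci, 231 of them with signal in some library. The authors' deposited NMD mark is TRUE where both co-depletions are above 0 and over 2 times the control. It was set on 68 of 231 (29.4%, Clopper-Pearson 95% interval 23.6 to 35.8%), at 34 loci, against 22.8% of all isoforms with signal. The shares of all isoforms were taken over loci of any level, while the LINC loci had passed 0.5 FPKM, so the 2 are not fully alike. Among isoforms with at least 10 reads in some library it was on 44 of 138 (31.9%), against 27.7%. Of the 68 marked, 31 were listed at 0 in the control, where the mark needs only a signal above 0 in each co-depletion, and 12 of these 31 had at least 10 reads. How reads are split among isoforms is an estimate, so isoform values carry an error that the intervals do not cover.

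At LINC00662 the rise sat in particular isoforms. ENST00000590677.1 gave 318, 490, 707 and 842 reads and ENST00000561521.1, whose frame is printed above, gave 242, 390, 528 and 625. Both were marked, at 2.45 (2.15 to 2.81) and 2.41 (2.06 to 2.81) times the control in SMG6/XRN1. An assembled isoform related to the first gave 292, 350, 308 and 365 reads, was not marked, and went from 27.7% of the LINC reads in the control to 15.7% in UPF1/XRN1. ENST00000586248.1 went from 5 and 6 reads to 62 and 104, which is 20.1 (8.33 to 63.1) times the control in UPF1/XRN1.

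LINC00680 had a similar split. An assembled isoform that shares junctions with ENST00000418368.1 gave 0, 1, 83 and 134 reads, so without the second depletion it had at most 1 read. ENST00000418765.1 went from 84 and 62 reads to 203 and 351. ENST00000418368.1 itself gave 50, 41, 48 and 20 reads and was at 0.386 (0.218 to 0.66) times the control in UPF1/XRN1.

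LINC00263 exchanged isoforms. Its leading assembled isoform gave 201, 332, 764 and 844 reads, or 4.19 (3.58 to 4.92) and 4.05 (3.47 to 4.75) times the control in the co-depletions. ENST00000454935.1 went the other way, with 125 reads in the control and 9, 20 and 0 in the others. The leading isoform therefore took 54.1% of the LINC reads in the control and 83.7% in UPF1/XRN1.

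Minor isoforms of LINC00152 and LINC00467 rose where the locus did not reach 2-fold. At LINC00152, ENST00000409139.1 gave 9, 18, 45 and 60 reads and went from 3.01% to 12.5% of its reads. Its most abundant isoforms stayed more level, with 142, 130, 151 and 169 reads for an assembled isoform and 117, 139, 142 and 154 for ENST00000331944.6. At LINC00467 an assembled isoform gave 11, 41, 56 and 102 reads, going from 3.88% of the LINC reads in the control to 25.6% in UPF1/XRN1, while ENST00000423222.1 gave 185, 197, 258 and 170. At LINC00338 the leading isoform ENST00000434411.1 gave 138, 222, 324 and 555 reads and was marked.

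**Figure D4:**
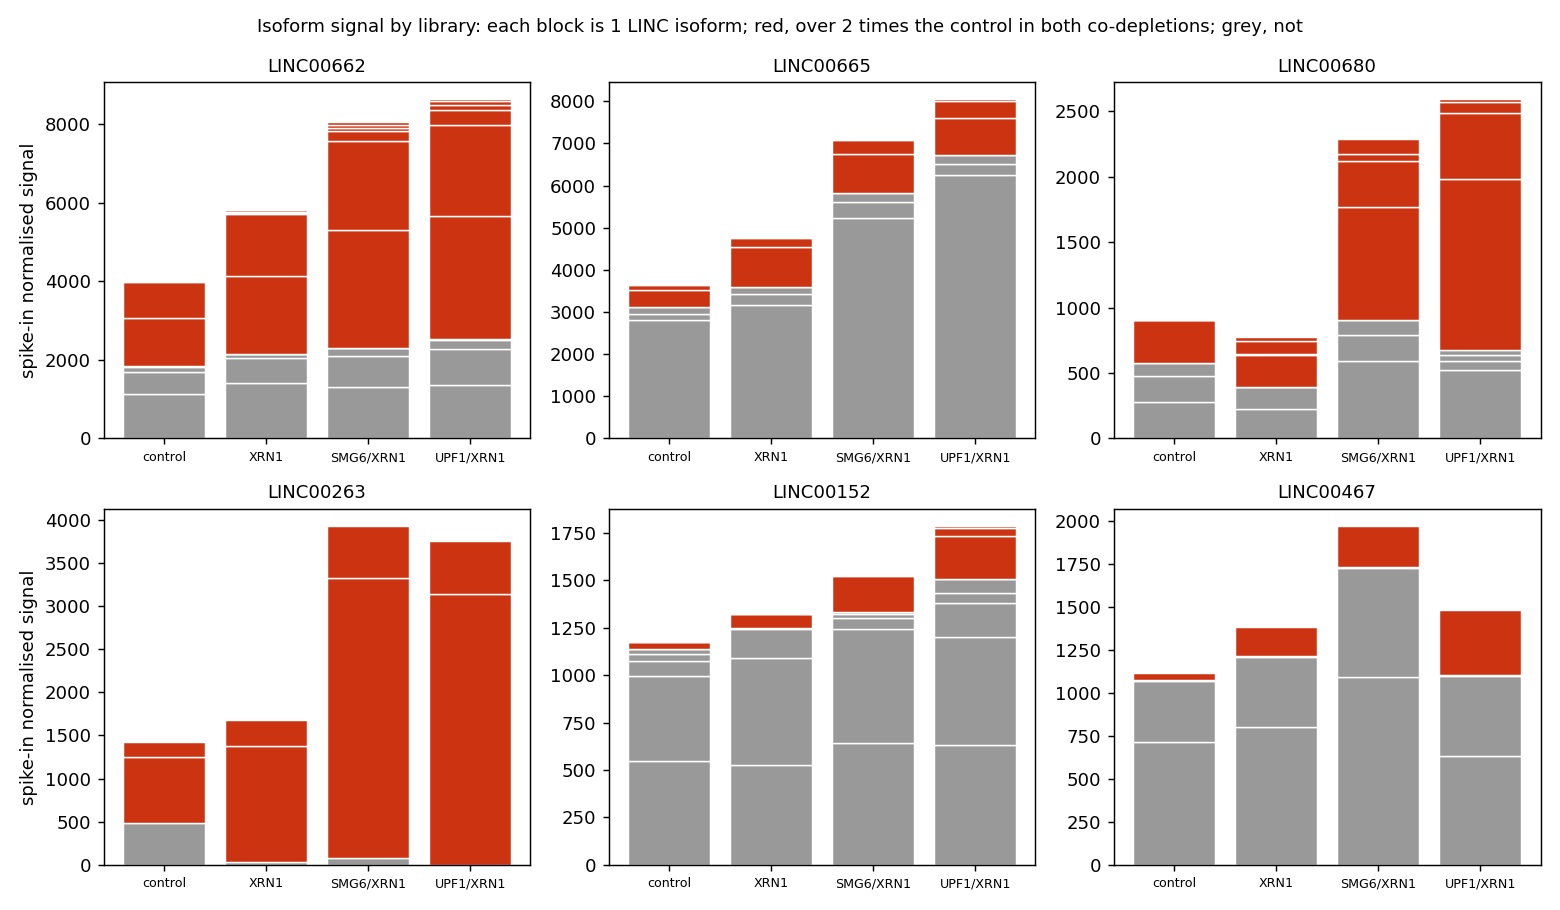
Spike-in normalised signal of the LINC isoforms of 6 loci in the 4 RNA-seq libraries, stacked from 0, 1 panel per locus with its own axis and 1 block per isoform. Red blocks are isoforms over 2 times the control in both co-depletions and grey blocks are the others; red makes up most of the bar of LINC00662, LINC00680 and LINC00263 in the co-depleted libraries and little of it in LINC00152.

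LINC00617, level as a locus, also exchanged isoforms. ENST00000504119.1 gave 65, 100, 102 and 110 reads and ENST00000503525.2 gave 68, 19, 11 and 21. At LINC00665 the main isoform ENST00000591372.1, whose frame is shown, gave 730, 785, 1230 and 1679 reads and was not marked, because SMG6/XRN1 stood at 1.86 (1.69 to 2.04) times the control. The marked ENST00000590622.1 gave 104, 238, 217 and 232, with most of its rise in XRN1 alone. At LINC00265, ENST00000340510.4 gave 23, 40, 121 and 104 reads, or 78.7%, 82.0%, 98.3% and 90.3% of the LINC reads.

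The position of the first stop did not set the marked isoforms far apart. Of the LINC-led isoforms that match a reference transcript in full and had at least 10 reads, the first frame stopped more than 50 bases upstream of the last junction in 19 of 21 marked isoforms (90.5%) and in 39 of 49 unmarked ones (79.6%). Over all 29566 long non-coding transcripts of GENCODE 29 the share was 62.0%. Where the transcript version was the same as in the files it was 4 of 5 marked and 18 of 24 unmarked isoforms. These are descriptions of letters, and other versions of a transcript can differ in their ends. Of the 6 frames printed, the isoforms of LINC00662 and LINC00355 were marked, and those of LINC00116, LINC00493, LINC00665 and LINC00669 were not.

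Set beside other long RNAs, LINC-led loci had smaller median changes than the non-coding hosts of small nucleolar RNAs. Of 18 such hosts on the list, 15 were measured, with a median log2 change of 2.28 in SMG6/XRN1 over control and 2.59 in UPF1/XRN1 over control, and 11 of 15 were at least 2-fold higher in each. The title of the series names these hosts, so they are no independent evidence. GAS5, the best known of them, went from 175.9 FPKM in the control to 1482 in SMG6/XRN1. The 161 loci whose symbol marks them as antisense had medians of 0.28 and 0.15, with 33 and 24 loci at least 2-fold higher. Of 14 NMD and decay factors, 13 were measured, with medians of 0.75 and 0.52, and SMG9, a subunit of the SMG1 kinase complex, was at 14.7 FPKM in the control and 47.9 in UPF1/XRN1. LINC-led loci, at 0.67 and 0.42, lay between the antisense loci and the hosts, and no test of these differences was made.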

How the data were processed

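Only the 4 RNA-seq libraries, 1 for each of the labelled conditions, were used. Per the submitters' processing notes, which give no role or order, Cufflinks 2.0.2, TopHat2 2.0.6, Bowtie 0.12.7 and CASAVA 1.8.2 were used with hg19. The authors deposited FPKM values for each locus of their assembly. For isoforms they deposited a signal described as normalised to a spike-in. What was spiked in, how the factor was made and whether counting used the strand were not given in the sources used. Values of antisense or overlapping genes and of near-identical copies are therefore uncertain.

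Dividing the signal by what 1 read was worth (3.85, 4.05, 4.25 and 3.72 in control, XRN1, SMG6/XRN1 and UPF1/XRN1) gave reads. Of loci with at most 20 reads, 88.4%, 86.7%, 88.0% and 89.0% then came out whole within 0.01; the others hold fractional estimates. No count test was run, since each condition had 1 library. Read ratios keep the deposited scaling and carry exact conditional binomial intervals at 95%. A count of 0 was taken to allow up to 3 reads. Intervals cover counting error only, and those of shares treat isoforms as independent. The scripts were tested on simulated data (Python 3.11.15, pandas 2.3.3, numpy 2.4.6, scipy 1.17.1).

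The loci, the lists and the rules were chosen with earlier results of these data known. The division at 80% LINC reads, the reads of LINC isoforms alone and the division by control level at 0.5 FPKM were chosen after seeing the data. Loci named by rule were the 10 of highest mean, those at least 2-fold higher in both co-depletions with at least 20 reads, the 3 largest rises and falls of each comparison, those next to the threshold and those on the lists; other loci were named after their values were seen. Alternatives were a pseudocount of 1 FPKM, a mean of at least 1 FPKM, no filter, the summed isoform signal, centring on the median, at least 20 reads, and stricter isoform sets. The deposited files give no coordinates; those printed are of GENCODE 29 transcripts with the same identifiers on GRCh38. A further list was drawn up as nuclear-retained long RNAs, a label not checked here. Of 6, 4 were measured, with median log2 changes of 0.75 and 1.27 in SMG6/XRN1 and UPF1/XRN1 over control. They differed, with NEAT1 at 1.62 and 2.36, PVT1 at 2.83 and 3.01, MALAT1 at -0.12 and 0.17 and OIP5-AS1 at -0.51 and -0.83.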

Additional observations from a re-analysis of the deposited data

How the results depend on the processing

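With a pseudocount of 1 FPKM, LINC loci at least 2-fold higher numbered 2 in XRN1 over control, 3 in SMG6/XRN1 over XRN1 and 3 in UPF1/XRN1 over XRN1. They numbered 6 in SMG6/XRN1 over control and 8 in UPF1/XRN1 over control. Of all loci 3.72%, 1.31%, 2.4%, 8.42% and 9.36% were higher. In UPF1/XRN1 over control 0 were lower (all loci 0.524%). With a mean of at least 1 FPKM (39 loci), 4 were higher in each co-depletion over XRN1 and 10 in SMG6/XRN1 over control (all loci 2.93%, 4.35% and 14.2%). Under that filter 0 were lower in UPF1/XRN1 over control (all loci 1.55%). With no filter (151 loci), 11, 21, 24, 29 and 29 were higher in the same order of comparisons (all loci 8.68%, 6.17%, 6.93%, 15.2% and 14.8%). There, 5 were lower in XRN1 over control and 1 in UPF1/XRN1 over XRN1 (all loci 2.55% and 2.87%). In SMG6/XRN1 and UPF1/XRN1 over control, 1 and 4 were lower (all loci 1.32% and 2.76%). On the summed isoform signal 5 were higher in SMG6/XRN1 over XRN1 (all loci 4.84%). On it, 1 was lower in UPF1/XRN1 over XRN1 and 0 in UPF1/XRN1 over control (all loci 1.92% and 1.74%). With LINC isoforms alone, chosen after seeing the data, the last pair was also 1 and 0. Centred on the median of all loci, 9 were higher in SMG6/XRN1 over control (all loci 9.66%). So centred, 2, 1 and 3 were lower in XRN1, SMG6/XRN1 and UPF1/XRN1 over control (all loci 2.05%, 1.9% and 3.97%). LINC00240 in XRN1 over control reversed to -0.11 on the isoform signal, summed or of LINC isoforms alone. The cause was not tested. In the 4 comparisons of a co-depletion, the share of LINC loci that were higher stayed above that of all loci under each planned setting, by the fewest percentage points at a pseudocount of 1 FPKM in SMG6/XRN1 over control (11.3% against 8.42%). In XRN1 over control it was below that of all loci with no filter (7.28% against 8.68%) and level with it at a pseudocount of 1 FPKM (3.77% against 3.72%). The planned settings kept joined loci and did not divide loci by control level. Among LINC-led loci with at least 0.5 FPKM in the control, 4 of 34 (11.8%) were higher in both co-depletions, against 8.99%. The settings therefore cannot separate the excess from how loci entered the set. The counts with at least 20 reads or with LINC-led loci alone, and the isoform share under both stricter sets, stayed within 1.5 times. No paired analysis was possible because each condition had 1 library, and for the same reason no library could be left out. LINC00403, LINC00444 and, over the control, LINC00085 had too few reads to show their 2-fold calls beyond counting error. So did LINC00240 in the co-depletions over control. At other calls the read interval lay wholly under 2-fold, so the reads disagreed with the call. Among these was LINC00240 in XRN1 over control, at 0.925 (0.497 to 1.71). Others were LINC00085 and LINC00649 in both co-depletions over XRN1. In SMG6/XRN1 and UPF1/XRN1 their upper bounds were 1.99 and 1.87 for LINC00085, and 1.95 and 1.61 for LINC00649. Over the control, so were LINC00355 in UPF1/XRN1, at 1.47 (1.25 to 1.73), and LINC00623 in SMG6/XRN1, at 1.55 (1.23 to 1.95). Over XRN1, so were the joined loci of LINC00663 in SMG6/XRN1, at 1.61 (1.44 to 1.8), and of LINC00843 in UPF1/XRN1, at 1.83 (1.74 to 1.93).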
